A study of Mus musculus with 4 samples.

Results

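The genes described here are 42 genes of mitosis and of the G2/M transition, measured as messenger RNA in mouse hematopoietic stem cells (HSCs) with and without the transcriptional repressor Gfi1b. The members were chosen by symbol, as mitotic cyclins, kinases, spindle checkpoint proteins, kinesins, condensin subunits and cytokinesis factors. All 42 were found among the 37140 genes listed for every library, and none was lost to a filter on low counts. RNA of sorted cells was sequenced from the marrow of tibiae, femora and humeri of C57Bl6 mice, and reads were counted per gene. Each of the 4 groups was 1 library, namely Gfi1b wild type (WT) HSCs, Gfi1b knock-out (KO) HSCs, WT CD41low/CD9low HSCs and KO CD41low/CD9low HSCs. HSCs were gated as Lin- cKit+ Sca1+ CD48- CD150+, and CD41 and CD9, surface proteins that are high on megakaryocytes, separated the second population. For the HSC library the labels and methods name neither CD41 nor CD9, whereas elsewhere the study calls such a population CD41+/CD9+ HSCs, so whether the HSCs include CD41low/CD9low cells cannot be told from the sources used here.

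The KO animals were Rosa-Cre Gfi1b fl/fl and received tamoxifen to switch on Cre, whose expression from the ubiquitous Rosa26 locus does not limit deletion to HSCs. The methods give the controls as Rosa-Cre Gfi1b wt/fl mice that also received tamoxifen, hence heterozygous, whereas the deposited design describes floxed mice lacking Cre. The sample titles name Gfi1 and the genotype field names Gfi1b. Marrow of several mice was pooled before sorting, with fewer KO than control mice, and the ages are not given in the sources used here. With 1 library per group, a KO/WT difference within a population has no replicate check.

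Cells enter mitosis when Cdk1, bound to cyclin A and then to cyclin B, becomes active. Aurora and Polo-like kinases and kinesin motors then build the spindle, condensins compact the chromosomes, and the spindle checkpoint holds back the anaphase-promoting complex until every kinetochore is attached. Most of these genes are transcribed late in the cell cycle under FoxM1 and the B-Myb/MuvB complex and are shut off in quiescent cells, so that their RNA is highest in cells in G2 and M. HSCs of adult marrow are largely quiescent. In such bulk samples, fewer cells of a type and less RNA per cell cannot be told apart.

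Gene counts added up to 50781007 and 41690708 for the WT and KO library of HSCs and to 12732079 and 19123185 for CD41low/CD9low HSCs, which were thus measured less deeply. The populations were counted on different gene annotations, and annotation and population cannot be told apart. Gfi1b rose in counts over the whole gene, from 9256 to 49910 in HSCs and from 611 to 9741 in CD41low/CD9low HSCs (log2 difference 3.06, adjusted p = 3.43e-05 in edgeR's quasi-likelihood fit to the 4 libraries). A count over the whole gene includes exons that were not floxed, so it does not check the deletion. The HSC markers Kit and Gata2 were abundant in all libraries, with 989 to 1262 and 200 to 559 CPM (counts scaled to a common library total), whereas Cd3e, a T cell marker, had at most 1 count in any library. The gate was cKit+, so the level of Kit is tied to the sort. Not all markers of mature leukocytes were near 0, since the neutrophil gene S100a9 had 40.6 to 363.3 CPM, highest in WT CD41low/CD9low HSCs.

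Levels of different genes are given per length, as TPM, which divides counts by the gene's exon length and scales each library to a common total. In WT HSCs the highest members were Top2a, the topoisomerase that untangles chromosomes, with 282.0 TPM, the condensin ATPase Smc4 with 256.7 and Mki67, which coats mitotic chromosomes and encodes the proliferation marker Ki-67, with 227.3. The lowest were the phosphatase Cdc25c with 9.18 TPM and the transcription factor Foxm1 with 18.2. Counts per member ran from 689 to 38788 in WT HSCs, from 391 to 27081 in KO HSCs, from 92 to 6275 in WT CD41low/CD9low HSCs and from 111 to 6945 in KO CD41low/CD9low HSCs. Every member was therefore well above 3 counts, the limit that a count of 0 allows. Together the members took 0.511% of the counts in WT HSCs (95% exact binomial interval 0.509 to 0.513) and 0.392% in KO HSCs (0.390 to 0.393). In CD41low/CD9low HSCs they took 0.305% in the WT (0.302 to 0.308) and 0.238% in the KO library (0.236 to 0.240). WT HSCs were also the highest library in 40 of 42 single members and KO CD41low/CD9low HSCs the lowest in 33, but the order of all 4 libraries was that of these shares in 20 members. How often all genes show these ranks was not counted, so the ranks describe the members only. Ect2 and Aurka were the members in which WT HSCs were not the highest. Intervals here and below cover counting error only, and reads without molecular identifiers are not independent molecules.

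**Figure D1:**
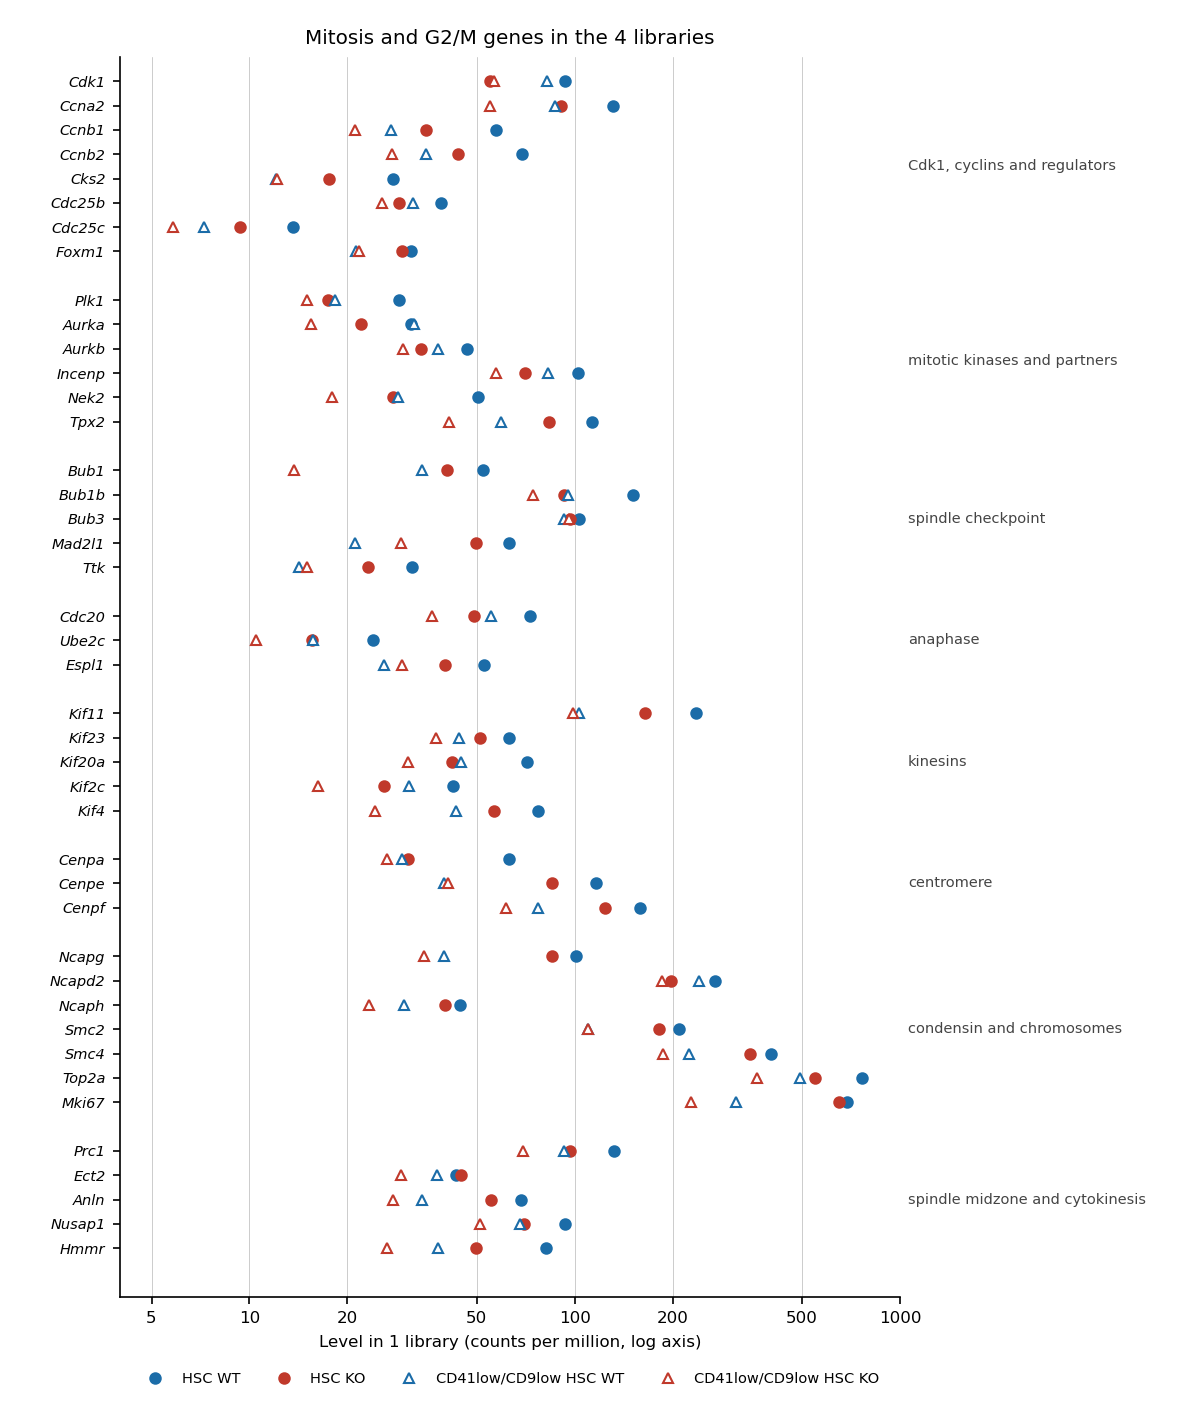
Level of each of the 42 members in the 4 libraries, in CPM on a log axis, with HSCs as filled circles, CD41low/CD9low HSCs as open triangles, WT in blue and KO in red; each point is 1 library. The blue circle lies farthest right in 40 of 42 rows and the red triangle farthest left in 33, ranks that were not counted over all genes.

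The promoters of several members are shown because genes of this class are known to share 2 short elements, the cell cycle homology region (CHR, TTTGAA), which MuvB binds, and CCAAT boxes, which NF-Y binds. RefSeq promoter entries, holding 250 bases before and 50 after each start on GRCm38.p6, were found for 34 of the 42 members and not for Aurkb, Ccna2, Cdc25c, Foxm1, Incenp, Kif20a, Smc4 and Tpx2. Both motifs were searched on both strands. TTTGAA was present in 25 of the 34 members (73.5%) and in 20.2% of all 27025 genes with an entry, and CCAAT in 29 (85.3%) against 41.1%. Both together were found in 23 members (67.6%) against 8.97% of all genes. The following lines give the 150 bases that end just before the RefSeq start, 5′ to 3′ on the gene's strand, with both motifs in capitals on either strand (the CHR reads TTTGAA or else TTCAAA and the CCAAT box reads CCAAT or else ATTGG). Cdk1 (chr10:69352913-69353062, minus strand), Cdc20 (chr4:118437344-118437493, minus), Top2a (chr11:99024190-99024339, minus), Kif11 (chr19:37376232-37376381, plus) and Mki67 (chr7:135716380-135716529, minus) hold both motifs. Cks2 (chr13:51645082-51645231, plus) holds CCAAT alone, and Mad2l1 (chr6:66535071-66535220, plus), the member whose KO/WT ratios lay on opposite sides of 1 beyond counting error, holds neither in its whole entry, nor do Nusap1 and Ncaph, which are not printed. For Kif11 and Mad2l1 the last bases of the entry, after the RefSeq start, were not found as 1 whole stretch in any GENCODE transcript of the gene. The printed bases of Kif11 end at 37376381 and its GENCODE gene begins at 37376403. With 50 bases after the RefSeq start, the Kif11 entry thus runs into the gene. The Mad2l1 entry ends before the GENCODE start of the gene. Finding the last bases of an entry does not mean equal starts, since the printed bases of Mki67 end at 135716380 and its GENCODE gene begins at 135716361.
Cdk1: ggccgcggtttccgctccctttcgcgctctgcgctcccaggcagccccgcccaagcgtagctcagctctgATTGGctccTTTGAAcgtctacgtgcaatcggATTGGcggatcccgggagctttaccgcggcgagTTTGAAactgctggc
Cdc20: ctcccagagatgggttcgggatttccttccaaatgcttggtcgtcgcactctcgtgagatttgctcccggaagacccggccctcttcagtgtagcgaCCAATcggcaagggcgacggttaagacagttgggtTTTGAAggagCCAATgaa
Top2a: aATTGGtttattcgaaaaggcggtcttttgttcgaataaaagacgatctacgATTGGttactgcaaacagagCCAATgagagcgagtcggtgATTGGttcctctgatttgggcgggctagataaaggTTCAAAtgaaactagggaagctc
Kif11: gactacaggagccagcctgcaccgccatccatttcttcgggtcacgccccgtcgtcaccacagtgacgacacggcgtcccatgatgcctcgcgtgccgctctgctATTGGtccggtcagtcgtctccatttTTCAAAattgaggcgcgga
Mki67: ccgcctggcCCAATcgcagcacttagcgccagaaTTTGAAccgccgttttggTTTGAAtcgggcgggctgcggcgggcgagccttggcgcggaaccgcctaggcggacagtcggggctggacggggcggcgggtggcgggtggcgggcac
Cks2: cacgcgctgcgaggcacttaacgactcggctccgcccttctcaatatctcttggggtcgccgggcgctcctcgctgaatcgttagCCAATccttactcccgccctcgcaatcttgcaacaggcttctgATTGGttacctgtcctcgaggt
Mad2l1: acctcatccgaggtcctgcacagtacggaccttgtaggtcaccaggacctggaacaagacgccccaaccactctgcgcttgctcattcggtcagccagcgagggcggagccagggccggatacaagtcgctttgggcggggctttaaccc

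In Cdk1, Cdc20, Top2a and Kif11 a CHR lay 15, 18, 23 and 19 bases before the start, counted to its first base, with a CCAAT box 48, 53, 58 and 45 bases before it. The last 26 printed bases of Cdk1 and the last 9 of Cdc20 lie in GENCODE exons. This Cdk1 CHR and the Cdc20 CCAAT box 8 bases before the RefSeq start are thus inside the GENCODE gene. Mki67 had its CHRs 116 and 98 bases before the start. No printed CHR overlapped a CCAAT box. The 25 members with a CHR had a median KO/WT ratio of 0.740 in HSCs and 0.780 in CD41low/CD9low HSCs, and the 9 members without it 0.751 and 0.783, so that the medians of these groups were close in both populations. A match of 6 or 5 letters is a description of the sequence, not a binding site.

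In KO HSCs, 41 of the 42 members had a lower level than in WT HSCs, where 50% of all 15910 genes with at least 10 counts in 1 library were lower. Their median KO/WT ratio was 0.740, and the summed counts of all members had a ratio of 0.777 (95% exact interval 0.772 to 0.782). Ratios were taken on counts divided by median-of-ratios size factors of the pair, which bring the median ratio of all genes close to 1. 12 members were lower by at least 1.5-fold, and none was higher by as much; 12.7% of all genes were lower and 14.1% higher at this fold. Among genes with at least 50 counts in 1 library, as all members had, 8.14% were lower at this fold. The counting interval lay below 1 in 40 members, against 33.7% of all genes, above 1 in none, against 35.6%, and contained 1 in Foxm1 and Ect2. The 12 members were Cdk1, Ccnb1, Ccnb2, Cks2, Plk1, Nek2, Bub1b, Ube2c, Kif20a, Kif2c, Cenpa and Hmmr. The shift of the members as a group was thus shared by almost all of them but was modest in size, and a fold of 2 was reached by Cenpa alone.

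In KO CD41low/CD9low HSCs, 34 of the 42 members were lower than in WT, against 49% of 14844 genes, and the median ratio was 0.782. The summed counts had a ratio of 0.781 (0.770 to 0.792), close to that in HSCs. 7 members were lower by at least 1.5-fold and none higher, where 14.3% of all genes were lower and 13.5% higher, and 8.11% were lower among genes with at least 50 counts in 1 library. These were Bub1, Aurka, Kif2c, Kif4, Nek2, Ccna2 and Cdc20. Ube2c, with a ratio of 0.667, lay just outside the fold and crossed it when the counts were scaled by the library totals. The counting interval lay below 1 in 31 members, against 30.4% of all genes, above 1 in Mad2l1 alone, against 31.1%, and contained 1 in 10. The members spread more widely here than in HSCs, from 0.405 for Bub1 to 1.393 for Mad2l1, with counts that were lower throughout.

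**Figure D2:**
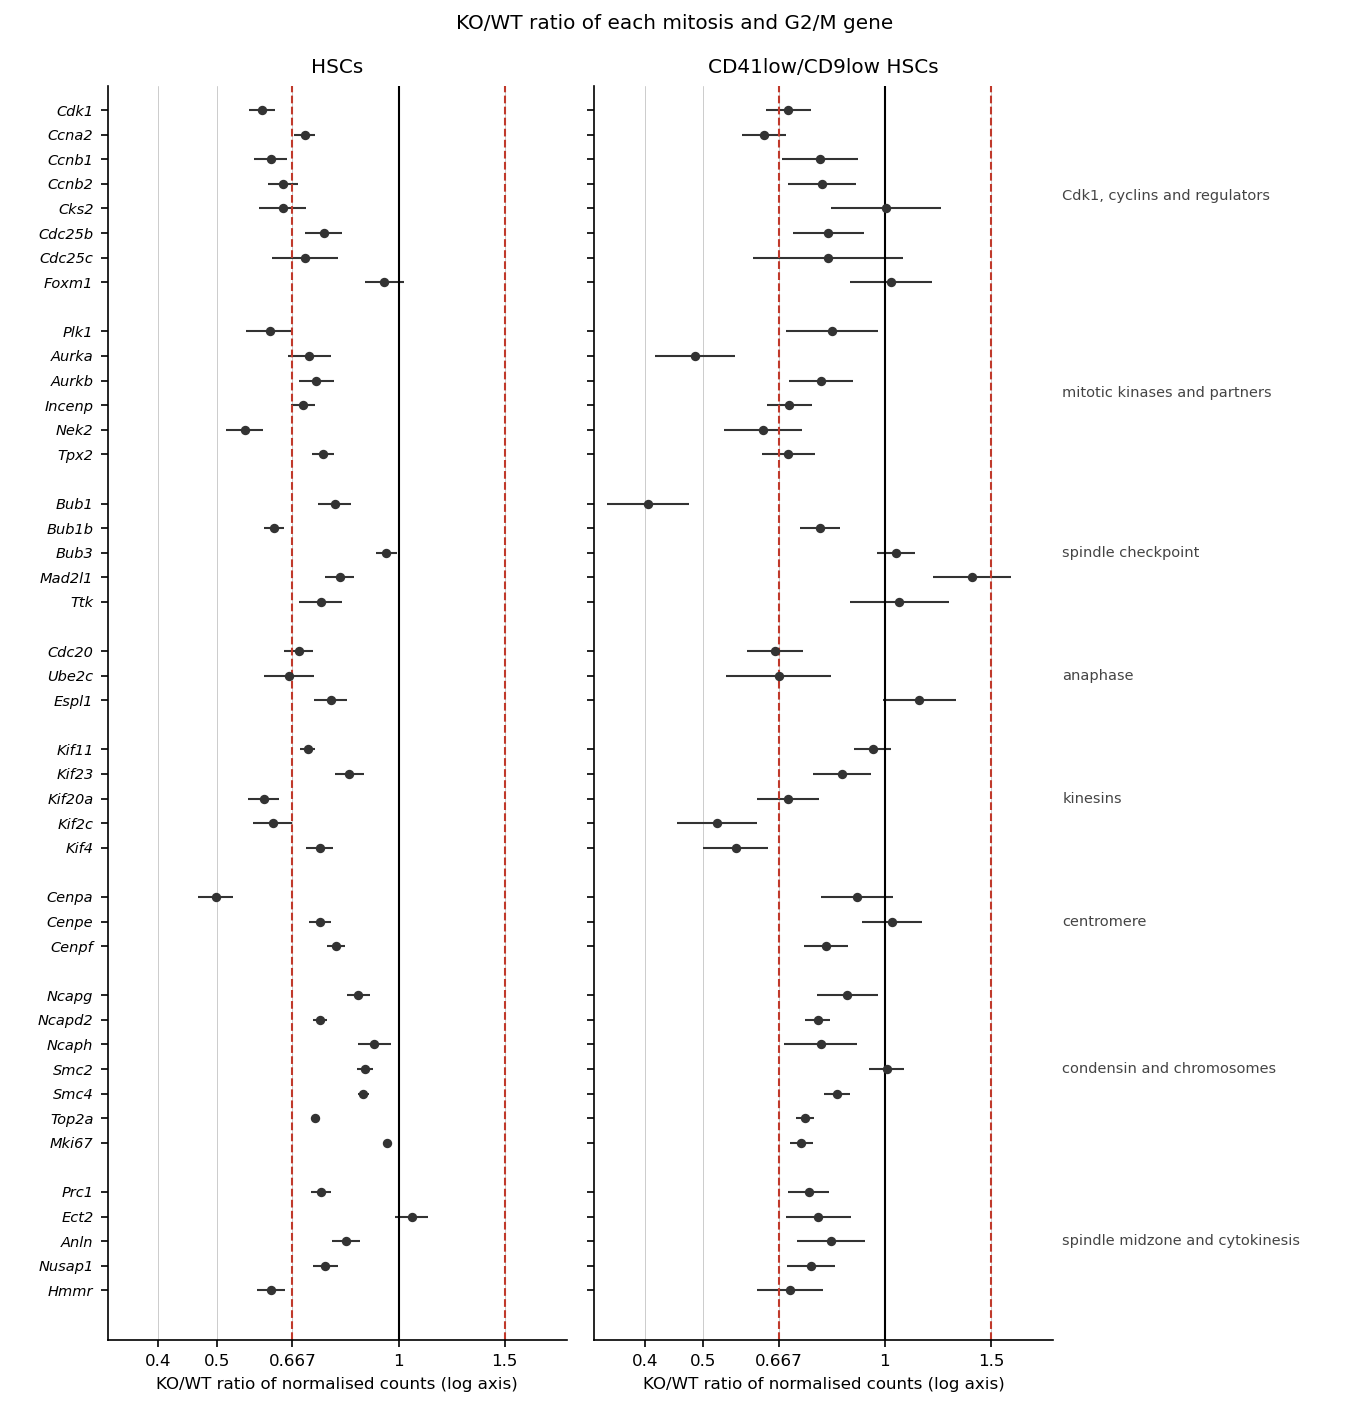
KO/WT ratio of normalised counts of each member in HSCs (left) and CD41low/CD9low HSCs (right) on a log axis, with exact 95% intervals of counting error, 1 library per genotype. The solid line marks a ratio of 1 and the dashed lines a fold of 1.5 either way; 41 of 42 points lie left of 1 in HSCs and 34 of 42 in CD41low/CD9low HSCs.

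Cdk1, its cyclins and regulators had 4 of 8 members (50%, against 12.7% of all genes) below the fold in HSCs, with a median ratio of 0.672. In CD41low/CD9low HSCs 1 of 8 was below it (12.5%, against 14.3%), near the share of all genes, and the median ratio was 0.796. Cdk1 (ENSMUSG00000019942, chr10:69335146-69352938 of GRCm38, as are all gene positions here), the kinase that drives entry into mitosis, had 93.5 CPM in WT and 54.8 in KO HSCs, and 81.9 CPM in WT and 56.6 in KO CD41low/CD9low HSCs. Both KO libraries were thus under both WT libraries. Cdk1 had a KO/WT ratio of 0.594 (0.565 to 0.625) in HSCs and of 0.692 (0.635 to 0.754) in the CD41low/CD9low pair. Cyclin A2 (Ccna2), the partner of Cdk1 before nuclear envelope breakdown, had 131.4 and 90.7 CPM in WT and KO HSCs and 87.0 and 54.8 CPM in WT and KO CD41low/CD9low HSCs, with ratios of 0.699 and 0.631. The mitotic cyclins Ccnb1 and Ccnb2 had ratios of 0.614 and 0.644 in HSCs and of 0.780 and 0.787 in CD41low/CD9low HSCs. Cks2, a small subunit that Cdk1 complexes bind, had 27.6 and 17.5 CPM in WT and KO HSCs but 12.1 CPM in both CD41low/CD9low libraries, with ratios of 0.643 (0.587 to 0.704) and 1.004 (0.816 to 1.239). The phosphatases Cdc25b and Cdc25c, which remove the inhibitory phosphates from Cdk1, had ratios of 0.751 and 0.700 in HSCs and of 0.807 and 0.804 in CD41low/CD9low HSCs, where the interval of Cdc25c contained 1. Foxm1, which transcribes many of the other members, stood apart with 31.4 and 29.4 CPM in HSCs and 21.2 and 21.7 CPM in CD41low/CD9low HSCs. Its ratios of 0.947 (0.879 to 1.021) and 1.025 (0.877 to 1.199) both had intervals that contained 1.

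The mitotic kinases and their partners were lower in all 6 members and in both populations, with medians of 0.703 and 0.693. Nek2 (ENSMUSG00000026622, chr1:191821444-191833050), the kinase that parts the centrosomes, had 50.4 and 27.7 CPM in WT and KO HSCs and 28.7 and 18.0 CPM in WT and KO CD41low/CD9low HSCs. Its ratios of 0.556 (0.519 to 0.597) and 0.628 (0.541 to 0.730) were below the fold in both populations. 6.6% of its exonic bases are shared with the opposite-strand gene Gm38037, and how strand entered the counting is not given in the sources used here. Ccna2, Cdc25c, Kif4, Ncapg and Prc1 likewise share 11.1 to 15.1% of theirs. Aurka, the Aurora kinase of centrosomes and spindle poles, had 31.3 and 22.0 CPM in HSCs and 32.0 and 15.5 CPM in CD41low/CD9low HSCs. Here the WT libraries were close and the KO libraries lay apart, with ratios of 0.711 (0.655 to 0.772) and 0.485 (0.416 to 0.565). Tpx2, which activates Aurka on spindle microtubules, had ratios of 0.749 and 0.691. Plk1, the Polo-like kinase, was farther from 1 in HSCs (0.612, 0.559 to 0.669) than in the CD41low/CD9low pair (0.818, 0.686 to 0.976). Aurkb and Incenp, the kinase and the scaffold of the chromosomal passenger complex, had ratios of 0.731 and 0.695 in HSCs and of 0.784 and 0.695 in CD41low/CD9low HSCs.

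The 5 spindle checkpoint genes were the most divided group. All 5 were lower in KO HSCs, with a median of 0.783, whereas in CD41low/CD9low HSCs 2 were lower and 3 higher, with a median of 1.044. Bub1 (ENSMUSG00000027379, chr2:127801122-127831865), the kinase that recruits the checkpoint to kinetochores, had 52.4 and 40.5 CPM in WT and KO HSCs and 34.0 and 13.8 CPM in WT and KO CD41low/CD9low HSCs. Against 0.783 (0.737 to 0.833) in HSCs, its ratio of 0.405 (0.346 to 0.473) in the CD41low/CD9low pair was the lowest of all members there. Bub1b, which encodes the inhibitor BubR1, was lower in both, with 150.9 and 92.6 CPM in HSCs, 95.3 and 74.3 CPM in CD41low/CD9low HSCs and ratios of 0.622 and 0.780. Mad2l1 (ENSMUSG00000029910, chr6:66535390-66547220), which encodes the Mad2 protein that captures Cdc20, had 62.9 and 49.6 CPM in HSCs and 21.1 and 29.3 CPM in CD41low/CD9low HSCs. Its ratios, 0.799 (0.756 to 0.845) in HSCs against 1.393 (1.202 to 1.617) in the CD41low/CD9low pair, lay on opposite sides of 1 beyond counting error. The kinase Ttk had ratios of 0.743 and 1.057, and Bub3, which holds Bub1 and BubR1 at kinetochores, 0.955 and 1.044. In CD41low/CD9low HSCs the intervals of Ttk (0.875 to 1.28) and Bub3 (0.970 to 1.124) contained 1, so Mad2l1 alone was higher beyond counting error. Bub3 was the flattest of the checkpoint genes, with 102.8 and 96.9 CPM in WT and KO HSCs against 92.4 and 96.3 CPM in the CD41low/CD9low pair.

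Of the 3 anaphase genes, Cdc20, the activator of the anaphase-promoting complex, had 72.7 and 49.0 CPM in WT and KO HSCs and 55.3 and 36.3 CPM in WT and KO CD41low/CD9low HSCs. Its ratios of 0.683 (0.647 to 0.721) and 0.657 (0.591 to 0.731) were nearly the same. Ube2c, the ubiquitin-conjugating enzyme of the same complex, had ratios of 0.659 and 0.667, and 22.8% of its exonic bases are shared with the opposite-strand gene Tnnc2. Espl1, the separase that cleaves cohesin, was lower in KO HSCs (0.772, 0.725 to 0.821), and its CD41low/CD9low ratio was 1.141 (0.994 to 1.311).

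All 5 kinesins were lower in both populations, with medians of 0.707 and 0.691. Kif2c (ENSMUSG00000028678, chr4:117159639-117182639), which depolymerises microtubules at kinetochores, had 42.4 and 25.9 CPM in WT and KO HSCs and 30.9 and 16.3 CPM in WT and KO CD41low/CD9low HSCs. Its ratios of 0.619 (0.575 to 0.666) and 0.528 (0.453 to 0.614) made it, with Nek2, 1 of the 2 members below the fold in both populations, and 3.4% of 14144 genes were so. Kif20a, a motor of the spindle midzone, had ratios of 0.598 and 0.691, and 29.3% of its exonic bases overlap Cdc23 on the opposite strand. Kif4, a chromosome-bound motor, had 0.740 and 0.566. Kif11, the motor that pushes the spindle poles apart, had 235.5 and 164.2 CPM in HSCs, hence a ratio of 0.707 (0.686 to 0.728), but 103.4 and 98.6 CPM in the CD41low/CD9low pair, for which it was 0.955 (0.889 to 1.025). Kif23, a subunit of centralspindlin, had 0.828 and 0.849.

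Among the centromere genes, Cenpa (ENSMUSG00000029177, chr5:30666777-30674830), the histone H3 variant that marks centromeres, had the lowest ratio of all members in HSCs. It had 62.6 CPM in WT HSCs and 30.7 in KO HSCs (0.497, 0.466 to 0.531), whereas the CD41low/CD9low libraries had 29.5 and 26.5 CPM (0.899, 0.785 to 1.030). WT HSCs were thus the high library and the others lay together. The kinetochore motor Cenpe had 116.6 and 85.4 CPM in HSCs and 39.7 and 40.8 CPM in CD41low/CD9low HSCs, with ratios of 0.742 and 1.028. Cenpf, a kinetochore protein that accumulates in G2, had 0.788 and 0.799.

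The condensin and chromosome genes were the most abundant group and had the ratios nearest 1 in HSCs. Their medians were 0.874 in HSCs and 0.783 in CD41low/CD9low HSCs. None of 7 was below the fold in either population, against 12.7% and 14.3% of all genes. Top2a had 763.8 and 549.1 CPM in WT and KO HSCs and 492.8 and 363.2 CPM in WT and KO CD41low/CD9low HSCs. Its ratios of 0.728 (0.717 to 0.740) and 0.738 (0.713 to 0.764) differed by less than counting error. Mki67 (ENSMUSG00000031004, chr7:135689784-135716361) had 687.1 and 649.6 CPM in HSCs and 314.2 and 228.2 CPM in CD41low/CD9low HSCs, with ratios of 0.958 (0.943 to 0.973) and 0.727 (0.697 to 0.759). Of these 2 members, the highest by counts, Mki67 thus differed little between WT and KO HSCs while Top2a was lower. The condensin ATPases Smc2 and Smc4 had ratios of 0.879 and 0.874 in HSCs and of 1.007 and 0.833 in CD41low/CD9low HSCs. The condensin I subunits Ncapd2, Ncapg and Ncaph had 0.740, 0.858 and 0.912 in HSCs and 0.774, 0.867 and 0.783 in CD41low/CD9low HSCs.

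The 5 genes of the spindle midzone and cytokinesis had medians of 0.757 and 0.754. Hmmr, a spindle protein that binds microtubules and hyaluronan, had 81.8 and 49.6 CPM in WT and KO HSCs and 38.1 and 26.5 CPM in WT and KO CD41low/CD9low HSCs, with ratios of 0.615 (0.583 to 0.648) and 0.696 (0.613 to 0.789). The microtubule bundlers Prc1 and Nusap1 had almost the same ratio in both populations, 0.744 and 0.748 for Prc1 and 0.757 and 0.754 for Nusap1, and the actomyosin scaffold Anln had 0.819 and 0.813. Ect2 (ENSMUSG00000027699, chr3:27097222-27153878), the exchange factor that activates RhoA at the cleavage furrow, was the member with the highest ratio in HSCs, with 43.1 and 44.8 CPM and a ratio of 1.052 (0.988 to 1.119). In CD41low/CD9low HSCs it had 37.8 and 29.3 CPM and a ratio of 0.776 (0.686 to 0.879).

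In both populations together, 33 of the 42 members had a ratio under 1, against 27.4% of all genes. The size of the ratio in HSCs said little about that in CD41low/CD9low HSCs, the Pearson and Spearman correlations being 0.262 and 0.379 over the log2 ratios of the 42 members, which share their 4 libraries. Taking the populations as replicates of the genotype, a fit to all 4 libraries gave a negative KO effect for 41 of 42 members, against 48.7% of 14745 genes, with a median log2 difference of -0.41. No member passed an adjusted p of 0.05 in this fit (edgeR's quasi-likelihood test with Benjamini-Hochberg adjustment over all genes, 1 residual degree of freedom), where 0.115% of all genes were lower and 0.319% higher. At an unadjusted p under 0.05, 23 members were lower and none higher, against 4.13% of genes lower and 5.29% higher. The lowest adjusted p values were 0.145 for Cdk1 (log2 difference -0.64, SE 0.15) and 0.169 for Ccna2 (-0.59, SE 0.15), both lower in the KO library of each population. DESeq2's Wald test called none either. Without the filter on low counts the quasi-likelihood test called 9 members lower, namely Cdk1, Ccna2, Nek2, Bub1, Bub1b, Kif20a, Kif2c, Kif4 and Hmmr. More genes were called over all genes too at that setting, and their share is not given here. Nothing in the sources says that the libraries came from separate pools, so these p-values measure only the spread between these samples.

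**Figure D3:**
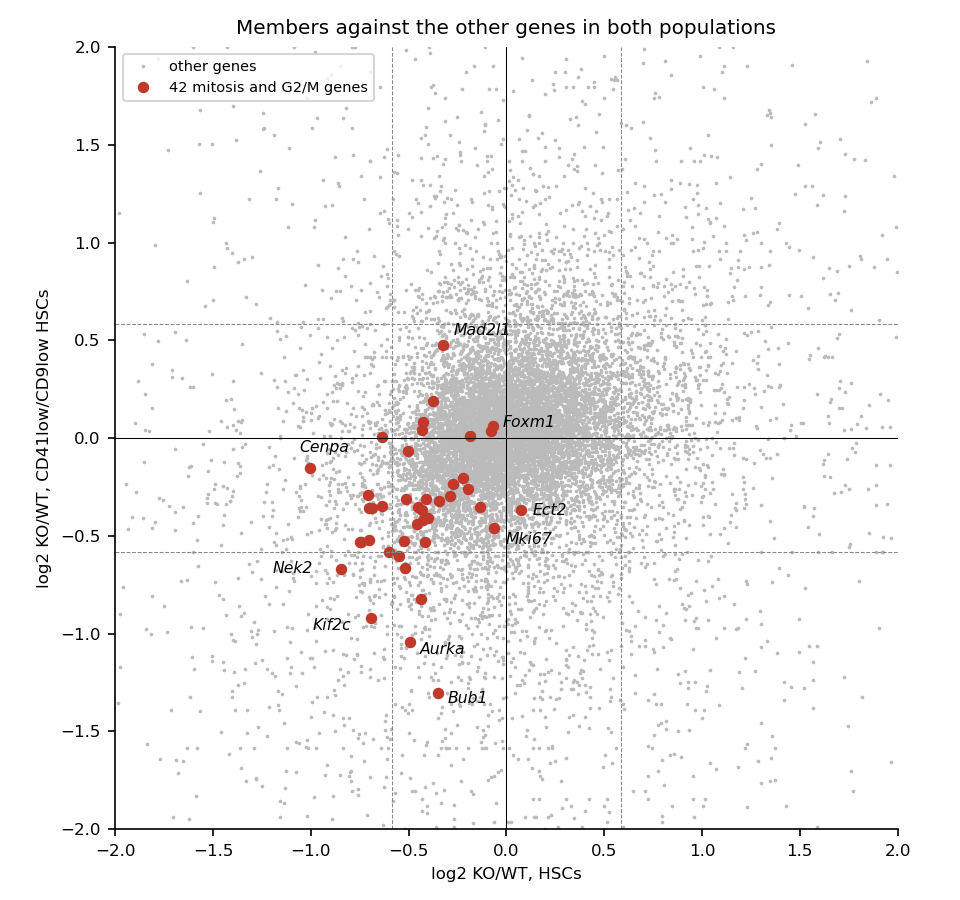
Log2 KO/WT ratio in HSCs (horizontal) and in CD41low/CD9low HSCs (vertical), with the 42 members in red and other genes in grey; dashed lines mark a fold of 1.5 either way, and 645 genes lie beyond the axes. Of the members, 33 lie at the lower left of both zero lines, Mad2l1 is the highest and Bub1 the lowest on the vertical axis, and Cenpa lies farthest left.

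Between the populations the members differed more than between the genotypes. All 42 had a negative log2 difference of CD41low/CD9low HSCs against HSCs, where 52.4% of 14745 genes did, and the median was -0.73 against -0.04 for all genes. 28 members were lower at an adjusted p under 0.05 and none higher, against 11.6% of genes lower and 7.41% higher (edgeR's quasi-likelihood test in the same fit). This test takes the WT and KO library of each population as its replicates, with 1 residual degree of freedom. Its p-values too measure only the spread between these samples, and population and annotation cannot be told apart. In 29 members both CD41low/CD9low libraries were under both HSC libraries in CPM, against 27.7% of genes. The median of the CD41low/CD9low level over the HSC level was 0.629 in WT and 0.652 in KO.

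The largest population differences were those of the condensin subunit Ncapg (log2 difference -1.39, SE 0.16), Mki67 (-1.38, SE 0.15), Cenpe (-1.37, SE 0.17), Mad2l1 (-1.23, SE 0.22) and Bub1 (-1.15, SE 0.24), with adjusted p values between 1.40e-04 for Mki67 and 6.97e-03 for Bub1. For Mad2l1 and Bub1 the fit averages unlike differences. The CD41low/CD9low level over the HSC level was 0.335 in WT and 0.590 in KO for Mad2l1, and 0.649 and 0.340 for Bub1. Ncapg had 100.9 and 85.4 CPM in WT and KO HSCs against 39.7 and 34.4 CPM in WT and KO CD41low/CD9low HSCs, with no overlap between the populations. All 3 centromere genes, 6 of 7 condensin and chromosome genes, 4 of 5 kinesins, 4 of 5 checkpoint genes and 4 of 5 midzone and cytokinesis genes were lower, and so were 4 of 8 genes of the Cdk1 group, 2 of 6 kinases and 1 of 3 anaphase genes. The 14 that did not pass were Cdk1, Cdc25b, Cdc25c, Foxm1, Plk1, Aurka, Aurkb, Incenp, Bub3, Cdc20, Ube2c, Kif2c, Ncapd2 and Ect2. Among them Cdk1 (-0.14, SE 0.15), Bub3 (-0.14, SE 0.15) and Ncapd2 (-0.19, SE 0.14) had the smallest differences. DESeq2 called 23 members, without Cks2, Kif23, Kif20a, Cenpa and Nusap1. The share of all genes that it called is not given here.

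**Figure D4:**
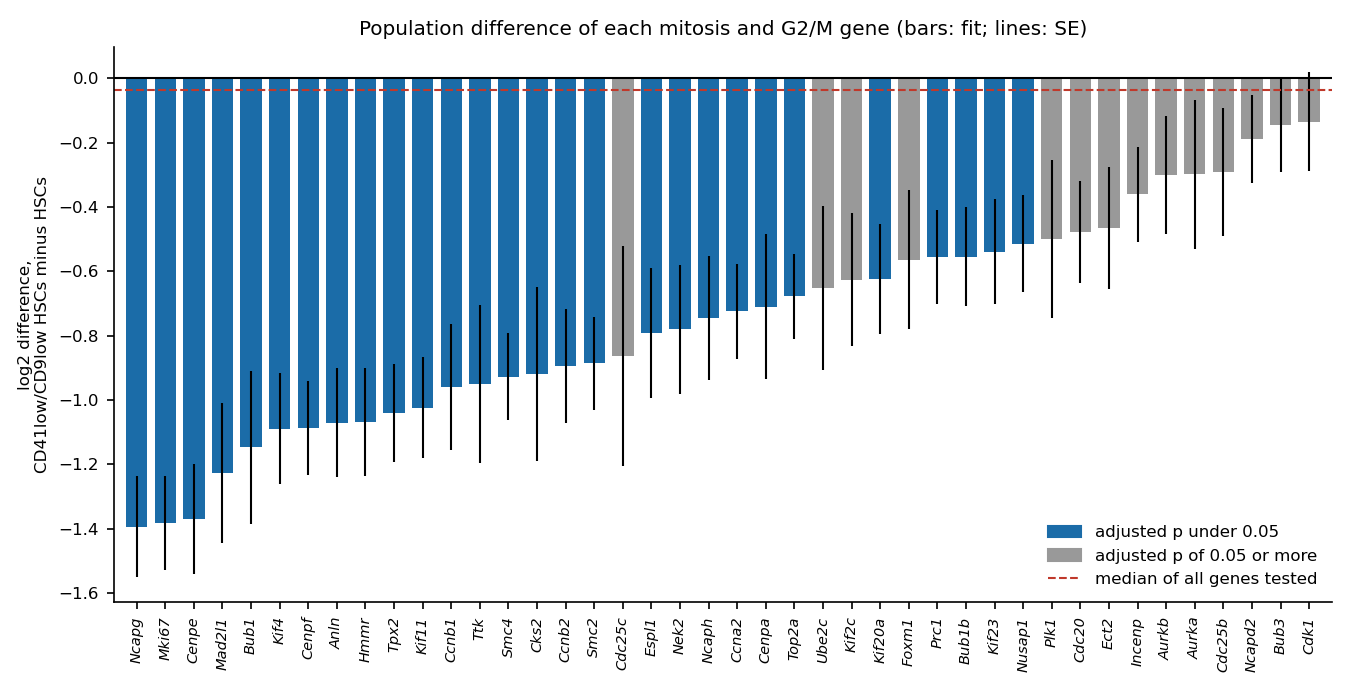
Fitted log2 difference of CD41low/CD9low HSCs against HSCs for each member, ordered by size, with the SE of the fit on 4 libraries; blue bars have an adjusted p under 0.05 and grey bars do not. All 42 bars lie under 0, from -1.39 for Ncapg to -0.14 for Cdk1, and the dashed line is the median of all genes tested, -0.04.

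The 68 other mitotic genes include Birc5, the kinetochore gene Ndc80, Aspm, the cohesin subunits and subunits of the anaphase-promoting complex. Of these 68, 56 were lower in KO HSCs, against 50% of all genes, with a median ratio of 0.800. 10 of the 68 (14.7%, against 12.7% of all genes) were below the fold and none was above it, against 14.1%. In KO CD41low/CD9low HSCs 52 were lower, against 49% of all genes, and the median was 0.828. There 11 (16.2%, against 14.3%) were below the fold and 3 (4.41%, against 13.5%) above it. The shares below the fold were thus near those of all genes. Among genes with at least 50 counts in 1 library, smaller shares were below it, 8.14% in HSCs and 8.11% in CD41low/CD9low HSCs. Nearly all of the 68 had such counts, with Depdc1a and Cdkn3 falling short in the CD41low/CD9low pair. The 3 above, named after their values were seen, were the centromere genes Cenpk (2.444, 1.768 to 3.438) and Cenpw (1.512, 1.127 to 2.047) and the inhibitor of the anaphase-promoting complex Fbxo5 (2.224, 1.858 to 2.673). None of the 68 was past the fold in the same direction in both populations, and none passed the shared genotype test, where 22 (32.4%, against 4.13% of all genes) were lower at an unadjusted p under 0.05. 31 of the 68 (45.6%, against 11.6%) were lower in CD41low/CD9low HSCs than in HSCs at an adjusted p under 0.05, and none was higher.

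Of the 18 DREAM and B-Myb regulators, which hold or switch on the members' transcription, 10 were lower in KO HSCs, against 50% of all genes. In KO CD41low/CD9low HSCs 14 were lower, against 49%. The median ratios were 0.983 in HSCs and 0.943 in CD41low/CD9low HSCs. Past the fold were Rb1 (1.511) in HSCs and E2f5 (1.769) and E2f2 (0.629) in CD41low/CD9low HSCs, named after their values were seen. In HSCs this was 1 of 18 higher and none lower, against 14.1% and 12.7% of all genes. In CD41low/CD9low HSCs it was 1 of 18 each way (5.56%, against 13.5% higher and 14.3% lower). None passed the shared genotype test, and 5 (27.8%, against 11.6% of all genes) were lower and none higher in CD41low/CD9low HSCs at an adjusted p under 0.05. Genes of DNA replication, which act before G2, had ratios under 1 in 24 of 26 in each population, against 50% and 49% of all genes. Their medians were 0.782 in HSCs and 0.755 in CD41low/CD9low HSCs. Of the most abundant, Mcm6 and Mcm3, subunits of the replicative helicase, had ratios of 0.849 and 0.779 in HSCs and of 0.817 and 0.736 in CD41low/CD9low HSCs. In CD41low/CD9low HSCs against HSCs, 4 replication genes (15.4%, against 11.6% of all genes) were lower and 1 (3.85%, against 7.41%) higher at an adjusted p under 0.05.

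Markers of other cells that could be in the gates moved with some of these comparisons, and their part in the members' values was not tested. The summed level of 7 markers of cycling progenitors was 567.5 and 585.0 CPM in WT and KO HSCs. In WT and KO CD41low/CD9low HSCs it was 801.6 and 409.7 CPM, and 6 of the 7 were lower in the KO, against 49% of all genes. Of these, Cd34 had ratios of 0.738 and 0.767 and the myeloid enzyme Mpo 1.503 and 0.170 in HSCs and CD41low/CD9low HSCs. The 10 mature leukocyte markers summed to 96.5 and 101.7 CPM in HSCs and to 644.2 and 169.5 CPM in CD41low/CD9low HSCs, nearly all of it from the neutrophil genes S100a9, S100a8 and Camp, while Cd79a and Cd3e had 0 counts in both CD41low/CD9low libraries. The 9 erythroid markers, led by Car2 and Epor, summed to 997.5 and 489.4 CPM in HSCs and to 820.1 and 727.1 CPM in CD41low/CD9low HSCs, and Car1 had 0 counts in the KO CD41low/CD9low library. Car2 alone had 922.1 and 446.7 CPM in WT and KO HSCs and 761.9 and 704.6 CPM in WT and KO CD41low/CD9low HSCs. In HSCs 7 of the 9 erythroid ratios lay under 1 and 2 over 1. Those over 1 were Hba-a1 (3.215, 2.243 to 4.682) and Alas2 (7.868, 3.707 to 19.2), with at most 2.69 CPM in either HSC library. In the CD41low/CD9low pair the erythroid markers went both ways, with 6 of 8 measured ratios under 1 and 2 over 1. The 2 were Epor (2.789, 2.034 to 3.891) and Rhag (1.596, 1.082 to 2.397). Megakaryocyte markers summed to 1511 and 1787 CPM in HSCs and to 493.2 and 516.7 CPM in CD41low/CD9low HSCs. 8 of the 10 (80%, against 11.6% of all genes), Vwf among them, were lower in CD41low/CD9low HSCs at an adjusted p under 0.05 (edgeR's quasi-likelihood test). The 8 include Itga2b, which encodes CD41, and Cd9. Their proteins defined this gate, so their lower level is tied to the sort and is no separate result. In KO CD41low/CD9low HSCs the markers were divided, 4 of 9 ratios lying under 1 and 5 over 1, with 1.504 for Itga2b and 0.610 for Vwf. Gp6 had 0 counts in both CD41low/CD9low libraries. The 10 HSC markers summed to a higher level in KO, with ratios of 1.149 in HSCs and 1.172 in CD41low/CD9low HSCs, although the 10 genes were divided. Gata2 had ratios of 1.975 and 1.949 and Kit 1.055 and 1.226, whereas Hlf (0.670) and Mecom (0.763) were lower in KO HSCs and had ratios under 1 in CD41low/CD9low HSCs too.

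**Figure D5:**
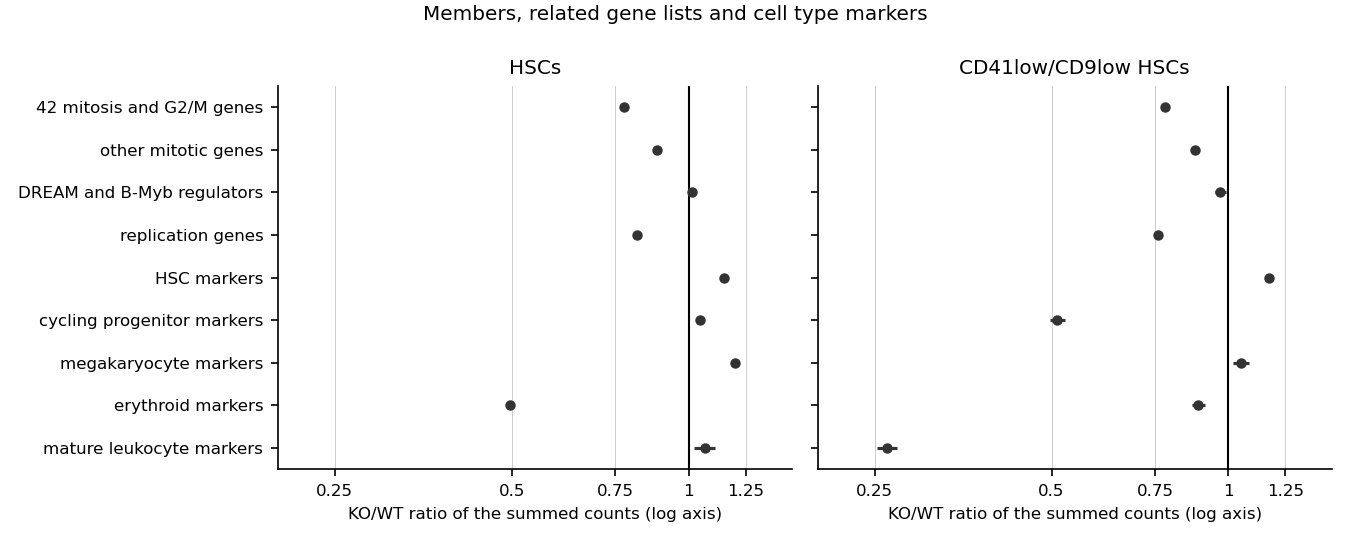
KO/WT ratio of the summed counts of the members, of 3 related gene lists and of 5 lists of cell type markers in HSCs (left) and CD41low/CD9low HSCs (right), on a log axis with exact 95% intervals of counting error, 1 library per genotype. The members lie at 0.777 and 0.781, replication genes at 0.816 and 0.759, and markers of cycling progenitors at 1.044 in HSCs and 0.512 in CD41low/CD9low HSCs.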

How the data were processed

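RNA of 4 sorted samples was sequenced from TruSeq Stranded mRNA libraries. The authors aligned reads to mm10 with TopHat2 (version 2.0.10 in the submitters' processing notes, which also list SAMtools and DESeq) and deposited HTSeq counts per gene, not normalised. Which annotation release and HTSeq settings were used is not given in the sources used here. Reads assigned to no feature, 60.1 to 105.3 per 100 counts on genes, were left out. The members and lists were chosen with earlier results of these data known.

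Symbols, positions and exon lengths were taken from GENCODE M21 (GRCm38), and promoters from RefSeq. KO/WT ratios used median-of-ratios size factors of each pair (KO over WT, 0.810 and 1.5), genes with at least 10 counts in 1 library, and exact Clopper-Pearson 95% intervals. Genotype and population effects were fitted on all 4 libraries with edgeR 4.0.16 (TMM, filterByExpr, quasi-likelihood test, Benjamini-Hochberg adjustment over 14745 genes) in R 4.3.3. The fit was tested on simulated data. Alternatives were DESeq2 1.42.0, other scalings, filters and folds, and a correction for exon length over 500 genes of like length. Ratios and figures were made in Python 3.11.15 with scipy 1.17.1 and matplotlib 3.10.9. At these depths 3 counts correspond to 0.0591 to 0.236 CPM.

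Named were all members, Gfi1b, those other mitotic genes and DREAM or B-Myb regulators past a fold of 1.5 the same way in both populations (none were), and the 2 marker or replication genes of each list with the highest summed count. Other names were chosen after their values were seen.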

Additional observations from a re-analysis of the deposited data

Results flagged for a closer look

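Mad2l1 stood out because its counting interval lay below 1 in KO HSCs, with 62.9 against 49.6 CPM in WT and KO, and above 1 in KO CD41low/CD9low HSCs, with 21.1 against 29.3 CPM. Its log2 KO/WT ratio was 0.80 higher in CD41low/CD9low HSCs than in HSCs (95% interval for counting error 0.58 to 1.03). With 1 library per group the difference between the populations was not tested.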

How the results depend on the processing

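Apart from the fit with population as a term, which compares KO with WT within each population, no block by replicate could be fitted, since each group was 1 library and the labels give no replicate numbers. Leaving out a library would leave the fit no residual degrees of freedom, and it was not run. In HSCs the summed ratio of 0.777 became 0.767 with library totals and 0.770 with size factors over all 4 libraries. The members lower by the fold, 12 in HSCs and 7 in CD41low/CD9low HSCs, became 1 and 2 at a fold of 2 and 4 and 4 at a ratio under 0.6, since those limits are stricter. Shares of all genes at these limits are not given here. Without the filter on low counts the shared genotype test called 9 members lower in place of 0, and 166 genes lower and 254 higher in place of 17 and 47; DESeq2 called 30 genes lower. The cause was not tested. After correction for exon length the members' median log2 ratio moved from -0.43 to -0.47 for HSCs and from -0.36 to -0.37 for CD41low/CD9low HSCs. That correction was not run on sums of counts. Of the recomputed member ratios, 403 stayed within their counting interval and 17 moved, all with the correction for exon length. No result changed its direction where it was called. The CD41low/CD9low libraries, with 12732079 and 19123185 counts, limit the precision of their ratios.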
